A study of Mus musculus with 4 samples.

Results

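The clustered protocadherins were examined in cultured neural stem/progenitor cells (NSCs) from mice with both copies of Chd5 (+/+) or neither (Chd5-/-). Members were all rows of the expression table whose gene name starts with Pcdha, Pcdhb or Pcdhg, which gave 21 of 18169 rows. The alpha cluster was represented by 1 row, Pcdha1, and the beta cluster by 20 rows, Pcdhb2 to Pcdhb20 and Pcdhb22. The other alpha genes, the C-type isoforms of the alpha and gamma clusters, all gamma genes, Pcdhb1 and Pcdhb21 were not analysed here.

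Clustered protocadherins are cadherin-like adhesion proteins that neurons and neural progenitors carry on their surface, where matching isoforms on neighbouring cells bind each other. In the alpha and gamma clusters, each isoform starts at its own promoter and variable exon, which is then spliced to constant exons that all isoforms of that cluster share. Each beta gene is instead a single large exon with its own promoter, and its protein lacks the shared cytoplasmic part. Single neurons switch on a small and partly random subset of these promoters, which is thought to give each neuron an identity by which its own branches recognise and avoid each other, and the choice depends on DNA methylation and on looping of promoters to distant enhancers by CTCF and cohesin.

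RNA was sequenced from 2 +/+ and 2 Chd5-/- cultures on the C57BL/6 background, each grown in EGF and FGF2 from the periventricular region, which includes the ventricular and subventricular zones, of a single newborn brain. Chd5 encodes a chromatin remodeler of neurons and their progenitors, and the comparison asked how its loss affects transcription in NSCs. The growth protocol places all cultures at postnatal day 1, whereas the age entries of the labels run from day 1 to day 4, with +/+ at days 1 and 2 and Chd5-/- at days 3 and 4, so by those entries age and genotype cannot be told apart. Values are in TPM, a measure of transcript abundance that is corrected for transcript length and adds to the same total in each sample, so the number of reads behind a value is unknown. The targeted gene, Chd5, was at 0.39 and 0.37 TPM in +/+ NSCs against 0.06 and 0.04 TPM in Chd5-/- NSCs, and under 1 TPM it was not tested. All 10 genes of the NSC marker list were detected in all samples, at uneven levels. Vim lay between 1068 and 1502 TPM and Sox2 between 201 and 442 TPM. Prom1 lay between 0.99 and 45.3 TPM and Hes5 between 1.16 and 43.7 TPM. The samples of 1 genotype were separate cultures, and bulk RNA cannot tell fewer expressing cells from less RNA per cell.

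The Pcdha1 row was by far the most abundant member. It was at 479 and 458 TPM in +/+ NSCs against 393 and 705 TPM in Chd5-/- NSCs, or 468 ± 14.8 TPM against 549 ± 221 TPM (SD, n = 2 per genotype). The Chd5-/- values lay on either side of both +/+ values, so the genotypes overlapped. The difference in log2(TPM + 1), Chd5-/- minus +/+, was 0.17 with a 95% interval from -0.69 to 1.03 (limma, adjusted p = 0.781). Its sign turned under each other scaling between samples, and without Chd5-/- replicate 2 it was -0.25.

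What the Pcdha1 row counts is uncertain. Pcdha1 lies on the plus strand of chromosome 18 of GRCm38, from 36930184 to 37187661, a stretch that holds the variable exons of the whole alpha cluster. All 12 other alpha gene symbols of the GENCODE annotation share an exon with it, and 61.6% of the 50-base stretches of its longest annotated transcript also occur in transcripts of other genes. A further 3 annotated transcripts run from the alpha into the gamma cluster. The Ugt1a genes, which are built in the same way with shared last exons, also have 1 row, Ugt1a1, for 9 annotated symbols. The level of the Pcdha1 row is therefore given as that of the row and not of a single alpha isoform.

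The beta genes occupy chromosome 18 of GRCm38 from 37294812 (start of Pcdhb2) to 37524479 (end of Pcdhb22), all on the plus strand. Their mean over the 4 samples ranged from 0.688 TPM for Pcdhb6 to 21.6 TPM for Pcdhb18, and 19 of the 20 reached the mean of 1 TPM needed for testing. None was listed at 0 in any sample. Pcdhb18, Pcdhb20 and Pcdhb17, neighbours or near neighbours toward the end of the cluster, had the highest means. Pcdhb18 was the most abundant beta gene in each of the 4 samples.

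**Figure D1:**
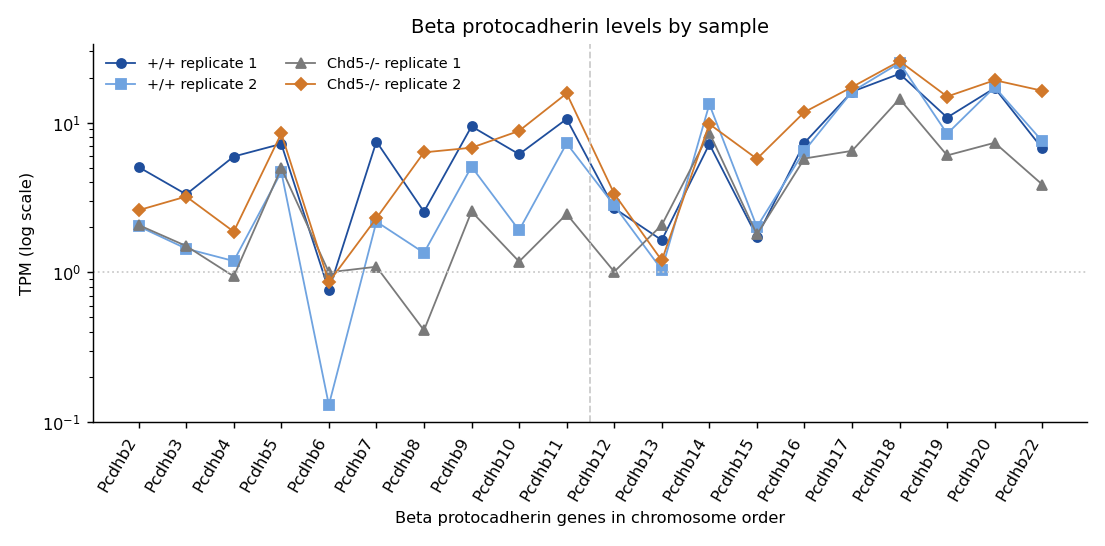
TPM on a log axis of the 20 beta protocadherin genes in chromosome order, with 1 line per sample, a dashed line between the first 10 and the last 10 genes and a dotted line at 1 TPM. Levels are higher toward the end of the cluster in all 4 samples, the +/+ samples separate in the first 10 genes, and Chd5-/- replicate 1 lies under Chd5-/- replicate 2 for 18 of 20 genes.

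Levels were higher toward the end of the cluster. The rank correlation of TPM with chromosome order over the 20 genes, which share a library and partly similar sequences, was 0.48 and 0.70 in +/+ NSCs against 0.66 and 0.75 in Chd5-/- NSCs. The last 10 genes, Pcdhb12 to Pcdhb22, held 61.3% and 78.6% of the summed beta TPM in +/+ NSCs against 76.0% and 68.8% in Chd5-/- NSCs. These shares did not separate the genotypes, since +/+ replicate 1 was lowest and +/+ replicate 2 highest.

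Among the first 10 genes, Pcdhb2 was at 5.05 and 2.03 TPM in +/+ NSCs against 2.07 and 2.60 TPM in Chd5-/- NSCs. Pcdhb3 was at 3.32 and 1.44 TPM against 1.5 and 3.21 TPM, in the same order of samples. Pcdhb4 (37307455 to 37311172) was at 5.94 and 1.19 TPM against 0.94 and 1.87 TPM. In these genes +/+ replicate 1 stood above the other 3 samples, which lay close together except for the high Pcdhb3 value of Chd5-/- replicate 2.

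Pcdhb5 was at 7.21 and 4.69 TPM in +/+ NSCs against 4.97 and 8.47 TPM in Chd5-/- NSCs. Pcdhb6, the least abundant beta gene, was at 0.76 and 0.13 TPM against 1.00 and 0.86 TPM, and it was the only member whose genotypes did not overlap. Pcdhb7 (37341702 to 37345202) was at 7.48 and 2.18 TPM against 1.09 and 2.30 TPM. Its +/+ replicate 1 was more than 3-fold above each other sample, while +/+ replicate 2 lay between the Chd5-/- samples.

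Pcdhb8 was at 2.54 and 1.35 TPM in +/+ NSCs against 0.41 and 6.33 TPM in Chd5-/- NSCs, which differed 15.4-fold from each other. Pcdhb9 was at 9.44 and 5.08 TPM against 2.55 and 6.80 TPM. Pcdhb10 was at 6.15 and 1.91 TPM against 1.18 and 8.81 TPM, and here the Chd5-/- samples differed 7.47-fold. For Pcdhb8 and Pcdhb10 the Chd5-/- samples were the lowest and the highest of the 4, with both +/+ samples between them. Pcdhb11 followed the same order, at 10.6 and 7.27 TPM against 2.45 and 15.7 TPM.

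Among the last 10 genes the +/+ samples lay closer together. Pcdhb12 was at 2.68 and 2.80 TPM in +/+ NSCs against 1.01 and 3.35 TPM in Chd5-/- NSCs. Pcdhb13, the tested member nearest the minimum, was at 1.64 and 1.04 TPM against 2.07 and 1.2 TPM. Pcdhb14 was at 7.19 and 13.3 TPM against 8.57 and 9.79 TPM, and it was the 1 gene of this group in which the +/+ samples were further apart than the Chd5-/- samples.

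Pcdhb15 (37473540 to 37476340) was at 1.73 and 2.01 TPM in +/+ NSCs against 1.79 and 5.73 TPM in Chd5-/- NSCs, so that the higher mean of the Chd5-/- samples came from replicate 2. Pcdhb16 (37477814 to 37483038) was at 7.33 and 6.49 TPM against 5.76 and 11.8 TPM. Pcdhb19 was at 10.8 and 8.43 TPM against 6.04 and 14.9 TPM, and Pcdhb22 at 6.72 and 7.52 TPM against 3.86 and 16.3 TPM. In Pcdhb16, Pcdhb19 and Pcdhb22 the Chd5-/- samples again lay on either side of both +/+ samples.

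The 3 most abundant genes had the same arrangement. Pcdhb17 (37484795 to 37489454) was at 16.1 TPM in both +/+ cultures, against 6.48 and 17.3 TPM in Chd5-/- NSCs. Pcdhb18 (37489465 to 37494505) was at 21.2 and 25.1 TPM against 14.4 and 25.7 TPM, and Pcdhb20 (37504264 to 37507822) at 17.0 and 17.3 TPM against 7.34 and 19.2 TPM. For each of them Chd5-/- replicate 2 was at or slightly above the +/+ level and Chd5-/- replicate 1 well below it.

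Summed over the 20 genes, beta protocadherin RNA was at 151 and 127 TPM in +/+ NSCs against 75.5 and 182 TPM in Chd5-/- NSCs, or 139 ± 16.7 against 129 ± 75.5 TPM (SD, n = 2 per genotype). The Chd5-/- samples were thus the lowest and the highest and differed 2.41-fold, against 1.19-fold between the +/+ samples. The log2 ratio of the mean sums was -0.11, and it was -0.88 without Chd5-/- replicate 2 and 0.39 without Chd5-/- replicate 1. The sum of the first 10 genes was 58.5 and 27.3 TPM in +/+ NSCs against 18.2 and 56.9 TPM in Chd5-/- NSCs. The sum of the last 10 genes was 92.4 and 100 TPM against 57.3 and 125 TPM.

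**Figure D2:**
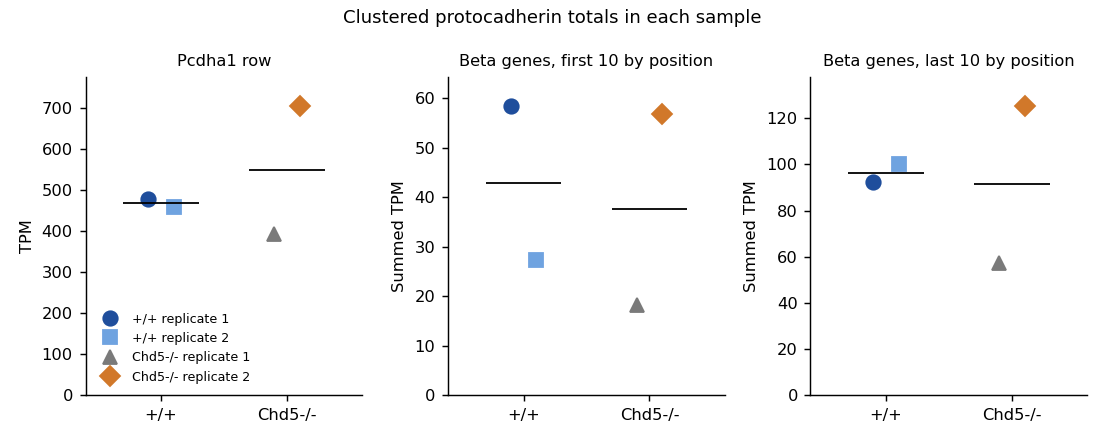
TPM of the Pcdha1 row and summed TPM of the first 10 and last 10 beta genes in each of the 4 samples, with a line at the mean of each genotype. In the first 10 beta genes the +/+ samples are at 58.5 and 27.3 TPM, whereas in the last 10 they are at 92.4 and 100 TPM and in the Pcdha1 row at 479 and 458 TPM.

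The Chd5-/- samples differed from each other across the whole beta cluster, and the +/+ samples mainly in its first 10 genes. +/+ replicate 1 was above +/+ replicate 2 in 10 of the first 10 beta genes and in 3 of the last 10, against 65.9% of all rows tested. The median difference between the +/+ samples, replicate 1 minus replicate 2, was 0.80 in log2(TPM + 1) in the first 10 genes and -0.033 in the last 10, against 0.14 over all rows tested. Without regard to sign it was 0.80 and 0.15, against 0.25 over all rows tested. Chd5-/- replicate 2 was above Chd5-/- replicate 1 in 9 of the first 10 genes, in 9 of the last 10 and in the Pcdha1 row, against 50.1% of all rows tested. Pcdhb6 and Pcdhb13 were the exceptions. The median difference, replicate 2 minus replicate 1, was 1.02 over the beta genes and 0.0021 over all rows tested. The median of the unsigned differences was 1.02 over the beta genes, against 0.40 over all rows tested.

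The median SD within genotypes was 0.64 on the log2(TPM + 1) scale for the 19 beta genes tested. It was 0.31 for the 6392 rows within the same range of mean TPM, from 1.49 to 21.6, and 0.28 for all rows tested. On the TPM scale, the median absolute difference between genotypes was the smaller one in the beta genes, at 0.24, against 0.61 in rows of like abundance. This order was not examined under other scalings, where the signed medians moved. With TPM the median difference was -0.089 in the beta genes and 0.34 over all rows tested. After median-of-ratios scaling the medians were -0.47 and -0.032. All these values are descriptions, since neighbouring genes of 1 cluster in 4 libraries are not independent replicates.

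The order of the beta genes by level was compared between samples. The rank correlation of TPM over the 20 genes was 0.87 for the +/+ pair, 0.78 for the Chd5-/- pair and from 0.74 to 0.90 across genotypes. Over all rows tested, which span a wider range of levels, it was 0.97, 0.90 and from 0.90 to 0.92. The effective number of beta genes, which is the exponential of the Shannon entropy of their shares and equals the number of genes if all are at the same level, was 15.8 and 12.7 in +/+ NSCs against 14.1 and 15.0 in Chd5-/- NSCs. The 3 highest beta genes held 36.0% and 45.9% of the sum in +/+ NSCs against 40.2% and 34.2% in Chd5-/- NSCs. In neither measure did the genotypes separate.

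In the comparison of genotypes with limma, 0 of the 20 members tested had an adjusted p-value under 0.05 over the 12576 rows tested, where 0.0557% of all rows did. Unadjusted p-values under 0.05 were found for 0 of 20 as well, where 24.1% of all rows passed. The smallest adjusted p-value was 0.344, for Pcdhb7. In 0 of the 20 did the genotypes fail to overlap, where 59.4% of all rows tested did not overlap, 46.3% with Chd5-/- above and 13.0% below. Of the 20, 9 had a higher and 11 a lower mean log2(TPM + 1) in Chd5-/- NSCs.

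**Figure D3:**
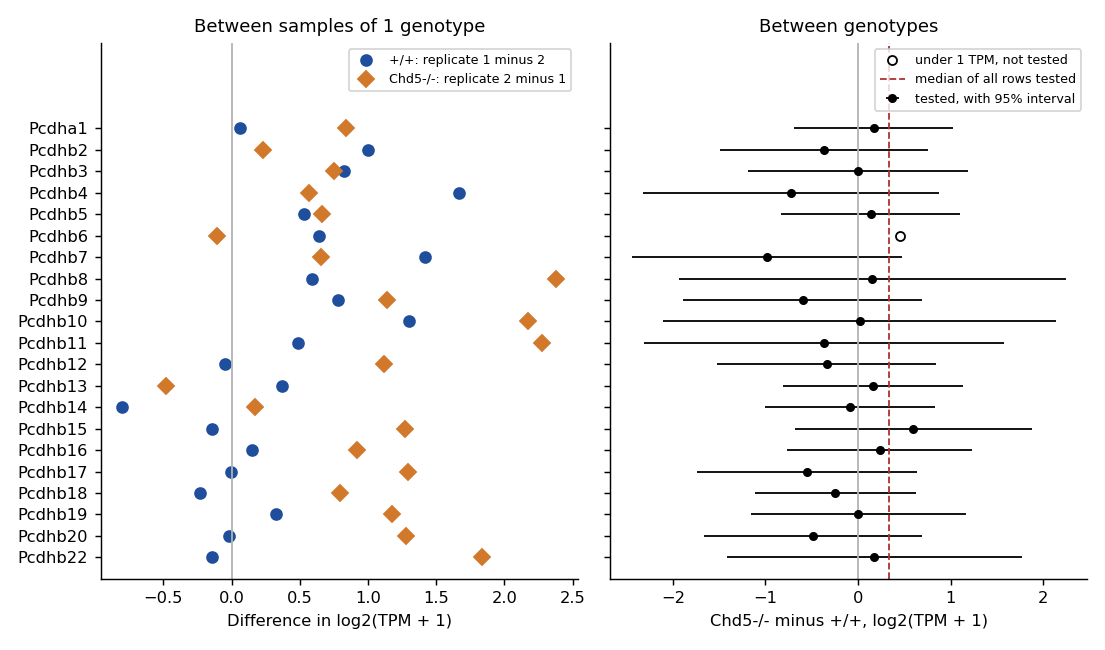
Differences in log2(TPM + 1) for the 21 members, on the left between the samples of each genotype and on the right between genotypes, Chd5-/- minus +/+, with 95% limma intervals and a dashed line at the median of all rows tested. All 20 intervals include 0, and on the left Chd5-/- replicate 2 is above replicate 1 in 19 of the 21 members.

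Among the members tested, the largest negative differences were those of Pcdhb7, at -0.98 (standard error 0.57, 95% interval -2.44 to 0.47), and Pcdhb4, at -0.72 (95% interval -2.33 to 0.88, adjusted p = 0.511). Without +/+ replicate 1 these became -0.28 and 0.11. Among the members tested, the largest positive differences were those of Pcdhb15, at 0.60 (95% interval -0.68 to 1.88, adjusted p = 0.498), and Pcdhb16, at 0.23 (95% interval -0.76 to 1.23, adjusted p = 0.734). Without Chd5-/- replicate 2 these became -0.039 and -0.22. Among the 3 most abundant genes, Pcdhb17 was at -0.55 (adjusted p = 0.503), Pcdhb20 at -0.48 (adjusted p = 0.549) and Pcdhb18 at -0.24 (adjusted p = 0.682), and each was positive without Chd5-/- replicate 1.

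The count at an unadjusted p-value under 0.05 rested on which Chd5-/- sample was used. With 1 Chd5-/- sample left, the residual spread of a row comes from the +/+ pair alone, moderated by limma over all rows, and the lone sample is assumed to vary like that pair. Without replicate 1 it was 4 members (Pcdha1, Pcdhb8, Pcdhb15 and Pcdhb22), all higher in the Chd5-/- sample left, where 35.3% of all rows passed. Without replicate 2 it was 6 members (Pcdhb8, Pcdhb9, Pcdhb11, Pcdhb12, Pcdhb17 and Pcdhb20), all lower, where 31.5% of all rows passed. Pcdhb8 was thus in both counts with opposite signs. No member passed the adjusted threshold in either case, where 9.92% and 8.64% of all rows did. The other alternatives gave 1 member, Pcdhb7 and lower, without +/+ replicate 2 and after quantile normalization, where 6.39% and 16.9% of all rows passed. They gave 0 members with no minimum TPM, with median-of-ratios scaling, with the 20 most abundant rows taken out, with GC content and length trends removed, with a block for replicate number and without +/+ replicate 1, where 19.1%, 23.0%, 21.3%, 11.2%, 18.2% and 12.7% of all rows passed.

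The number of members whose genotypes did not overlap moved in the same way. Without Chd5-/- replicate 1 it was 13, all with the remaining sample above the +/+ samples, where 61.2% of all rows were above. Without Chd5-/- replicate 2 it was 14 below and 1 above, where 24.3% and 61.8% of all rows were. Without +/+ replicate 1 it was 4 above and 1 below (57.5% and 18.0% of all rows), and without +/+ replicate 2 it was 2 above and 5 below (51.3% and 18.3% of all rows).

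The beta genes lay below the median of the table, by a distance that depended on the samples used. Their median difference was -0.089 in log2(TPM + 1), against 0.34 over all rows tested, and 18 of the 19 were below that median. Without Chd5-/- replicate 1 only 10 of the 19 were below the median of all rows, and with GC content and length trends removed 13 were. The beta median itself was 0.22 without Chd5-/- replicate 1 and 0.11 without +/+ replicate 1, against 0.35 and 0.41 over all rows. After median-of-ratios scaling the medians were -0.47 and -0.032, after quantile normalization -0.62 and -0.052, and when TPM were rescaled with the 20 most abundant rows taken out -0.30 and 0.13. The beta median stayed below that of all rows in each of these, by 0.43, 0.57 and 0.43 on the log2 scale, and also with trends of GC content and transcript length removed, by 0.13. After median-of-ratios scaling 7 of the 20 members did not overlap between genotypes and after quantile normalization 10 did not, all with Chd5-/- below, where 32.0% and 30.0% of all rows did so. With the 20 most abundant rows taken out, and with GC content and length trends removed, the same held for 3 members each, where 23.7% and 25.8% of all rows did so. The distance from the median of all rows was 0.13 without Chd5-/- replicate 1 and 1.07 without Chd5-/- replicate 2.

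The longest annotated transcripts of the beta genes ran from 2801 to 8695 bases with a GC content from 39.1% to 49.0%, at a median of 46.0%. The median was 49.2% for the 11624 tested gene names found in the annotation. Between 1.8% and 12% of their 50-base stretches also occurred in transcripts of other genes, with the highest share in Pcdhb12. The genes sharing most stretches with each were other beta genes, while Pcdhb14 shared stretches with 320 genes, more than the beta cluster holds. Values of beta genes with such stretches are uncertain where reads were split among the sharing genes, and Pcdhb22 also overlaps the annotated Pcdhb21. Across the 19 genes tested the difference between genotypes had a rank correlation of -0.0079 with GC content, 0.068 with transcript length and 0.28 with position.

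The protocadherins outside the clusters, which mostly have their own long genes on other chromosomes, had 12 rows, of which 9 were tested. With limma 0 passed the adjusted threshold, and 2, Pcdh7 and Pcdh11x, both lower in Chd5-/- NSCs, had an unadjusted p-value under 0.05, where 2.27% of all rows were lower at that threshold. Pcdh11x, an X-linked delta protocadherin, was at 23.3 and 12.4 TPM in +/+ NSCs against 1.59 and 8.21 TPM in Chd5-/- NSCs, a difference of -1.88 in log2(TPM + 1) (95% interval -3.61 to -0.16, adjusted p = 0.185). Pcdh15, known for its place in the tip links of hair cells, was at 29.1 and 18.5 TPM against 3.27 and 14.2 TPM, a difference of -1.59 (95% interval -3.23 to 0.051, adjusted p = 0.215). Pcdh11x and Pcdh15 were lower in each Chd5-/- sample than in either +/+ sample, and Chd5-/- replicate 1 was the lowest, as in 13 of the 20 beta genes. Leaving out 1 sample moved the difference of Pcdh11x between -2.80 (without Chd5-/- replicate 2) and -0.97 (without Chd5-/- replicate 1), and that of Pcdh15 between -2.51 and -0.67.

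Genotypes did not overlap in 7 of these 9 genes, 5 with Chd5-/- below and 2 above, where 13.0% and 46.3% of all rows tested were below and above. Pcdh7 was at 43.6 and 58.0 TPM against 25.4 and 33.2 TPM, Pcdh17 at 12.6 and 21.7 TPM against 4.85 and 11.0 TPM, and Pcdh18 at 5.83 and 5.35 TPM against 4.01 and 1.94 TPM. The genes with Chd5-/- above were Pcdh19, at 7.55 and 9.58 TPM against 12.5 and 16.6 TPM, and Pcdh1 at 1.5 and 1.18 TPM against 2.33 and 5.28 TPM. Pcdh10 and Pcdh9 overlapped, at 64.5 and 56.9 TPM against 29.1 and 58.6 TPM and at 37.8 and 48.6 TPM against 8.53 and 56.2 TPM. Without Chd5-/- replicate 2 the number with an adjusted p-value under 0.05 was 4, in a setting where 8.64% of all rows passed, and without +/+ replicate 1, +/+ replicate 2 or Chd5-/- replicate 1 it was 0. Pcdh8, Pcdh12 and Pcdh20 stayed at or under 0.27 TPM in all samples.

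**Figure D4:**
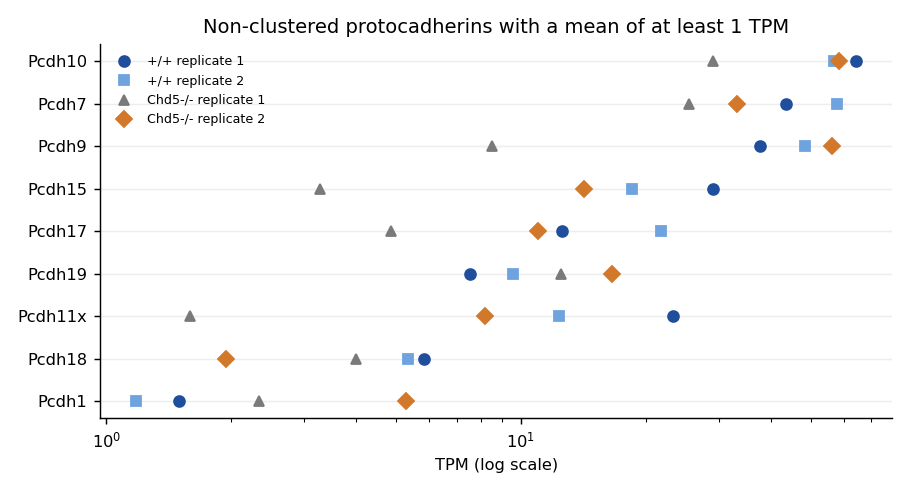
TPM on a log axis of the 9 non-clustered protocadherins with a mean of at least 1 TPM, with 1 point per sample. Chd5-/- replicate 1 is the lowest sample for Pcdh10, Pcdh7, Pcdh9, Pcdh15, Pcdh17 and Pcdh11x, with Pcdh11x at 1.59 TPM.

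Genes known to act on clustered protocadherin promoters formed a list of 27 names, of which 25 had rows that were tested. With limma 0 passed the adjusted threshold, and 4 had an unadjusted p-value under 0.05, all higher in Chd5-/- NSCs, where 21.9% of all rows were higher at that threshold. Their median difference was 0.13, against 0.34 over all rows tested. Ctcf, which binds the promoters and enhancers of the clusters, was at 81.5 and 66.6 TPM in +/+ NSCs against 66.8 and 79.2 TPM in Chd5-/- NSCs, a difference of -0.019 (95% interval -0.61 to 0.58). The cohesin subunit gene Rad21 was at 284 and 251 TPM against 244 and 384 TPM, and Smc3 at 90.7 and 87.1 TPM against 74.2 and 100 TPM. These 3 overlapped between genotypes. Among other cohesin genes, Smc1a did not overlap, at 85.9 and 58.2 TPM against 89.3 and 107 TPM. Stag2 did not either, at 163 and 153 TPM against 120 and 148 TPM. Stag1 overlapped, at 48.6 and 42.8 TPM against 32.7 and 44.1 TPM. Of the 25 genes, 11 did not overlap with Chd5-/- above and 5 with Chd5-/- below, where 46.3% and 13.0% of all rows did so.

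Among genes that silence the clusters, Smchd1 was at 60.1 and 65.2 TPM in +/+ NSCs against 51.8 and 49.5 TPM in Chd5-/- NSCs, a difference of -0.30 (adjusted p = 0.418). Rest, a repressor of neuronal genes, was at 7.90 and 7.61 TPM against 7.99 and 9.27 TPM (difference 0.13, adjusted p = 0.781). Dnmt3b, the methyltransferase tied to these promoters in early development, stayed between 0.53 and 1.08 TPM and was not tested. The largest differences were those of Ehmt2, a histone H3 lysine 9 methyltransferase, at 11.1 and 6.75 TPM against 25.0 and 30.4 TPM (difference 1.56, adjusted p = 0.12), and Trim28, a co-repressor that recruits Setdb1, at 27.1 and 16.9 TPM against 55.4 and 62.5 TPM (difference 1.42, adjusted p = 0.12). Mau2, a cohesin loader, and Dnmt1, the maintenance DNA methyltransferase, completed the 4, with differences of 1.04 and 0.71. With trends of GC content and transcript length removed, the differences of Ehmt2 and Trim28 were 0.58 and 0.45, and 0 of the list had an unadjusted p-value under 0.05, where 11.2% of all rows did.

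**Figure D5:**
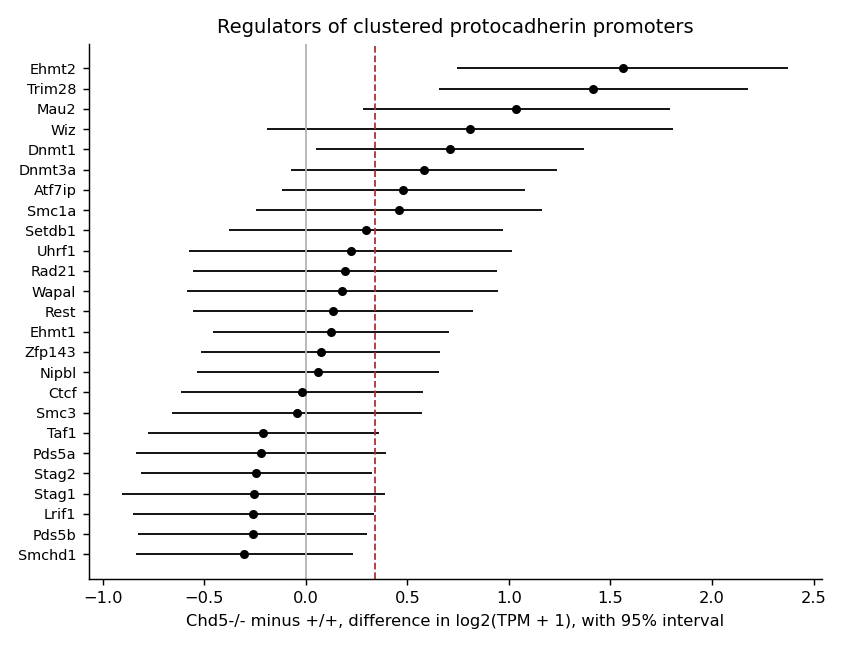
Differences in log2(TPM + 1), Chd5-/- minus +/+, of 25 regulators of clustered protocadherin promoters with 95% limma intervals, a grey line at 0 and a dashed line at 0.34, the median of all rows tested. The intervals of Ehmt2, Trim28, Mau2 and Dnmt1 exclude 0, and Ctcf lies at -0.019.

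Partners and processing enzymes of the clustered protocadherins formed a list of 30 genes, of which 28 were tested. With limma 0 passed the adjusted threshold, and 5 higher and 2 lower in Chd5-/- NSCs had an unadjusted p-value under 0.05, where 24.1% of all rows passed in either direction. The largest differences were those of Nlgn2, a neuroligin of inhibitory synapses, at 15.8 and 10.2 TPM in +/+ NSCs against 30.9 and 41.7 TPM in Chd5-/- NSCs (difference 1.43, adjusted p = 0.121), and Psenen, a subunit of gamma-secretase, at 80.7 and 57.3 TPM against 153 and 174 TPM (difference 1.25, adjusted p = 0.12). The kinase gene Ptk2, whose product binds the shared part of alpha and gamma protocadherins, was at 86.5 TPM in both +/+ cultures, against 105 and 72.3 TPM in Chd5-/- NSCs. With GC content and length trends removed the differences of Nlgn2 and Psenen were 0.46 and 0.42. The count at an unadjusted p-value under 0.05 was then 1, where 11.2% of all rows passed. A block for replicate number left 3, where 18.2% of all rows passed.

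Marker lists of other cell types also differed between the Chd5-/- samples. Over 9 of 10 oligodendrocyte lineage genes with rows, the summed level was 552 TPM in Chd5-/- replicate 1 and 1301 TPM in replicate 2, and between 611 and 684 TPM in the +/+ samples. Gpr17, a marker of committed oligodendrocyte precursors, was at 0.58 TPM in Chd5-/- replicate 1 and at 76.5 TPM in replicate 2. The 8 astrocyte genes summed to 536 and 1433 TPM in the Chd5-/- samples and to 878 and 1190 TPM in the +/+ samples. The 12 neuron genes summed to 527 and 926 TPM against 568 and 556 TPM, most of it Map2, while Rbfox3 was listed at 0 in 3 samples and Tubb3 was at or under 2.77 TPM in all. Of these 12 genes 6 were tested. With limma, 2 were higher and 1 (Elavl3) was lower in Chd5-/- NSCs at an unadjusted p-value under 0.05. Of all rows tested, 21.9% were higher and 2.27% lower at that threshold. The 2 higher were Gap43, at 47.7 and 28.0 TPM against 148 and 121 TPM, and Syt1, at 0.73 TPM in both +/+ cultures against 2.21 and 7.62 TPM. The 10 NSC genes summed to 3880 and 6678 TPM in the Chd5-/- samples and to 9778 and 8132 TPM in the +/+ samples. Most of it was Fabp7, Slc1a3 and Vim. Genotypes did not overlap in 4 of the 10, all with Chd5-/- below, where 13.0% of all rows tested did so. The others overlapped, with differences in log2(TPM + 1) from -0.39 (Sox9) to 2.12 (Prom1). Between the Chd5-/- samples, Nes (94.7 and 60.9 TPM) and Prom1 (45.3 and 3.20 TPM) were higher in replicate 1, and the other genes of the list in replicate 2.

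In the sums of these lists, as in the summed beta genes and the Pcdha1 row, Chd5-/- replicate 2 was above Chd5-/- replicate 1. The 8 mesenchymal genes went the other way, at 48.4 and 5.9 TPM, with 20.0 and 18.1 TPM in the +/+ samples. Most of each sum was Foxc1, at 26.6 and 5.57 TPM in the Chd5-/- samples and 19.9 and 17.8 TPM in the +/+ samples. The 4 endothelial genes with rows summed to 1.8 and 1.2 TPM in the Chd5-/- samples and to 5.0 and 19.6 TPM in the +/+ samples, where most of it was Flt1, and the 3 microglia genes with rows summed to under 1 TPM in each sample. The part of cell composition in the protocadherin values was not tested.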

How the data were processed

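RNA-seq of 4 samples of primary mouse NSCs, 2 +/+ and 2 Chd5-/-, was analysed from 1 table of TPM values that the authors deposited, with 18169 rows and 2 decimals. Libraries were stranded and polyadenylated RNA was sequenced. The submitters' processing notes name Bowtie2 2.2.3, RSEM 1.2.20 and the mm10 build, and the gene annotation is not given in the sources used here. Depth is unknown from TPM, so errors rest on the 2 samples per genotype.

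From the TPM, log2(TPM + 1) was computed. Rows whose mean reached 1 TPM, 12576 in all, entered a two-sided limma fit (version 3.58.1, R 4.3.3, eBayes with a trend), and p-values were adjusted over all of them by Benjamini-Hochberg. These differences understate the change of low rows. An exact permutation test of 2 against 2 cannot go below 0.333 and was not used. The members and lists were chosen with earlier results of these data known, so lists are described by counts and medians. By rule, every member, the 2 genes of largest absolute difference in each other list (cell type markers apart), and Ctcf, Smchd1 and Rest were named. Any other was named after its values were seen. Positions and transcripts came from GENCODE M21 (GRCm38). Alternatives were other pseudocounts (0.1, 5), no minimum or 10 TPM, 3 other scalings, removal of GC content and length trends by loess (span 0.5), the replicate number as a block, other variance estimates, and leaving out each sample. The fit was tested on simulated data. Python 3.11.15 and matplotlib 3.10.9 made tables and figures. Sequences are not printed here.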

Additional observations from a re-analysis of the deposited data

How the results depend on the processing

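No member passed an adjusted p-value of 0.05 under any alternative. At an unadjusted p-value under 0.05 the members numbered 1 after quantile normalization (Pcdhb7) and 0 to 6 with 1 sample left out. They were 0 with the replicate number as a block, which the labels do not tie to a litter or a day, and under which the deviations of the number 1 samples from their genotype means had a correlation of -0.152. Members that did not overlap between genotypes numbered 7 with median-of-ratios scaling and 10 with quantile normalization. Over all rows 60.33% and 54.32% did not, in either direction. Such members numbered 3 when TPM were rescaled with the 20 most abundant rows taken out and 3 with GC content and length trends removed. There 58.68% and 46.98% of all rows did not overlap. With 1 sample left out, 5 to 15 members and 69.65% to 87.12% of all rows did not, where fewer samples make separation easier. The log2 ratio of summed beta TPM ranged from -0.88 to 0.39 and that of Pcdha1 from -0.25 to 0.59 with 1 sample left out. The 7 rows called over the whole table became 0 with no minimum TPM, with the block and without either +/+ sample, and 1247 without Chd5-/- replicate 1 and 1086 without Chd5-/- replicate 2, where the spread comes from the +/+ pair alone. Apart from the count of partners given next, the block moved no count for the members or lists by much. In this balanced design the block leaves each difference as it was, so no sign could turn.

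Regulators with an unadjusted p-value under 0.05 numbered 9 with median-of-ratios scaling and 2 with quantile normalization, where 23.0% and 16.9% of all rows passed. With GC content and length trends removed they numbered 0, where 11.2% of all rows passed. Non-clustered protocadherins numbered 1 with no minimum TPM, where 19.1% of all rows passed. They numbered 5 after each of the other 3 scalings. There 23.0% (median-of-ratios), 16.9% (quantile) and 21.3% (most abundant rows taken out) of all rows passed. Partners numbered 1 with the trends removed, 3 with the block, and 2 to 13 with 1 sample left out, when 0 to 5 passed the adjusted threshold. The cause was not tested.

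The difference of Pcdha1 turned to -0.25 with median-of-ratios scaling, -0.12 with quantile normalization, -0.068 with the most abundant rows taken out and -0.053 without the trends. It ranged from -0.25 to 0.59 with 1 sample left out. Pcdhb16 turned to -0.13 with median-of-ratios scaling and to -0.36 with quantile normalization, which also turned Pcdhb15 to -0.069. Rest turned to -0.24, -0.46, -0.077 and -0.11 under the same 4. With 1 sample left out the ranges were -1.19 to 0.097 for Pcdhb17, -1.12 to 0.16 for Pcdhb20, -0.64 to 0.15 for Pcdhb18, -1.56 to 0.11 for Pcdhb4, -0.22 to 0.69 for Pcdhb16, -0.039 to 1.23 for Pcdhb15 and -0.16 to 0.13 for Ctcf. TPM gives no depth, so what depth limits cannot be given.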
